A study of Mus musculus with 9 samples.

Results

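The CCAAT/enhancer-binding proteins (C/EBPs) are a family of 6 transcription factors in the mouse, encoded by Cebpa, Cebpb, Cebpd, Cebpe, Cebpg and Ddit3. The 6 genes were taken by name from a table of 54532 genes measured by RNA sequencing in myeloid cells, without regard to their values. All 6 passed the filter on low values, which kept 12289 genes. The cells came from C57BL/6 mice aged 6 to 8 weeks, and 9 libraries fall into 3 groups of 3, each lettered A, B and C. The KO group carries the genotype label of a Socs3 knockout, and the Gr_1 and fl groups are both labelled wild type. The labels spell out neither what Gr_1 and fl stand for nor how Socs3 was deleted and with which Cre line, if any. They give no treatment, and whether the libraries came from different animals is not stated. The series title names C/EBPβ downstream of microRNA-155 in SOCS3-deficient suppressor cells, so whether Cebpb and its relatives differ in the KO-labelled libraries is a question the design addresses.

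C/EBPs are basic leucine zipper (bZIP) proteins: they pair through the zipper, bind DNA through the basic region, and exchange partners within the family. In granulocyte development C/EBPα acts early, at the entry of progenitors into the granulocyte path, C/EBPε acts later and drives secondary granule genes, and C/EBPβ is needed for the emergency granulopoiesis that infection and cytokines call for. C/EBPδ is an inflammation-induced activator that acts beside C/EBPβ. C/EBPγ lacks a classical activation domain and works mainly as a partner, and CHOP, the product of Ddit3, is induced by endoplasmic reticulum and amino acid stress and keeps its partners from classical C/EBP sites. SOCS3 limits signalling of the interleukin-6 and G-CSF receptors through STAT3.

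The link named in the title can be read from sequence. MicroRNA-155 pairs with messages through its seed, bases 2 to 8 of the mature strand, shown in capitals in the first line (RefSeq, GRCm38.p6, chr16:84714143-84714165, plus strand). The longest 3′ untranslated region (UTR) of each member in GENCODE M21 was searched, and the second line is the one stretch that holds the 7-base complement AGCATTA, in capitals. It lies in the message of Cebpb, starting at base 454 of a 3′ UTR of 506 bases (GRCm38, chr2:167690351-167690379, plus strand), and the next base is an A.
mmu-miR-155-5p: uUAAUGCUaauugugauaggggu
Cebpb 3′ UTR: accttttccgtttcgAGCATTAaagtgaa
The longest 3′ UTRs of the other five members, from 179 bases in Cebpe to 3962 bases in Cebpg, hold 0 such stretches. Of 10096 tested genes with an annotated 3′ UTR, 1078 (10.7%) hold at least 1 in any annotated transcript, so the match is common, and it describes letters, not binding.

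The regions before the start sites of Cebpa and Cebpb are shown because their levels differed in opposite directions between the KO-labelled libraries and Gr_1. Each line is the 250 bases before the RefSeq start on the plus strand of GRCm38.p6, chr7:35119043-35119292 for Cebpa and chr2:167688665-167688914 for Cebpb. Capitals mark the half-site TTGCG of the C/EBP palindrome in Cebpa and the half-site TGACG of the cyclic AMP response element (CRE), or its reverse complement, in Cebpb.
Cebpa: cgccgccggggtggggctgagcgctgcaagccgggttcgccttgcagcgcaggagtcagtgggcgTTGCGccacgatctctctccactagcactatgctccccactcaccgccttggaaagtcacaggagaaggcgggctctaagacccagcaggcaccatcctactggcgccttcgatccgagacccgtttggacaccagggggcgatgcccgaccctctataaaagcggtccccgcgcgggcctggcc
Cebpb: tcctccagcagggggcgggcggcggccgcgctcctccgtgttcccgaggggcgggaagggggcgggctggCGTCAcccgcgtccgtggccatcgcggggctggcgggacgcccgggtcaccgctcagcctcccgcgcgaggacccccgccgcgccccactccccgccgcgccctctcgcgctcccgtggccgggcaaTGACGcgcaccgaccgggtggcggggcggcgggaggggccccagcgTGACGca
The Cebpa match begins 185 bases before the start, and the 3 Cebpb matches begin 180, 53 and 7 bases before it, the first on the minus strand. Both strands of windows from 250 bases before to 50 after the start were searched, and 17.4% of 32851 such windows in RefSeq hold TTGCG and 20.8% hold TGACG. Windows were at hand for 4 members, and those of Cebpg and Ddit3 hold neither half-site. None of the 4 windows holds the full C/EBP palindrome TTGCGCAA (0.183% of all windows), the full CRE TGACGTCA (1.79%), the STAT palindrome TTCNNNGAA (8.3%) or the C/EBP-ATF element TGATGNAAT (0.965%). The 250 bases before Cebpb consist of G and C to 81.6%, against 66.4% before Cebpa.

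Values are FPKM, fragments per kilobase of exon divided by a scaling factor of each library, so levels of different genes can be set side by side. Between 18.3 and 21.5 M fragments were recovered per library from the deposited values. The scaling factor did not equal this depth. It lay below the recovered fragments in each Gr_1 library (18.2 against 21.5 M in Gr_1 B). In each KO-labelled and fl library it lay above them (21.7 against 19.7 M in KO B). Summed FPKM ran from 475393 to 486796 in Gr_1, 343079 to 370711 in the KO-labelled libraries and 350229 to 386695 in fl. Socs3, the gene named in the genotype label, had 9.23, 6.76 and 8.37 FPKM in the KO-labelled libraries, 37.0, 36.6 and 33.0 FPKM in Gr_1 and 3.87, 4.02 and 3.40 FPKM in fl. It was thus not lower than in fl under the KO label, the values do not show the genotype, and directions below for these libraries rest on their label. A pair of libraries stood apart. KO C carried both Xist (26.3 FPKM) and Y-linked genes (14.2 FPKM summed over 4), whereas the Y-linked genes came without Xist in KO A, Xist came without the Y-linked genes in KO B, and the 6 libraries of Gr_1 and fl had the Y-linked genes with Xist at 0.0104 FPKM or less. fl C departed from the other fl libraries along the GC content of genes: its median log2 deviation from the mean of fl A and fl B was -0.25 in the fifth of genes with the least GC and 0.15 in the fifth with the most. The members Cebpa, Cebpb and Cebpe are among the genes richest in GC, at the 97.6, 99.6 and 97.99 percentile of genes tested. The 10 most abundant genes held 38.5 to 39.4% of all FPKM in Gr_1 libraries, against 25.8 to 30.4% in those labelled KO and 24.3 to 25.3% in fl, so that the scaling of libraries bears on comparisons with Gr_1.

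Cebpe was the most abundant member in each library. It had 442, 373 and 431 FPKM in the KO-labelled libraries, 432, 434 and 386 FPKM in Gr_1 and 375, 351 and 443 FPKM in fl, and the ranges of the 3 groups overlapped. Among the genes tested its mean level stood at the 99.4 percentile in the KO-labelled libraries, the 99.3 in Gr_1 and the 99.2 in fl. Cebpb came next in each library, with 108, 74.9 and 136 FPKM in the KO-labelled libraries, 207, 248 and 217 FPKM in Gr_1 and 154, 151 and 228 FPKM in fl. The libraries labelled KO lay below those of both other groups, and fl C reached the range of Gr_1.

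Cebpa and Cebpd took opposite directions in Gr_1. Cebpa had 38.8, 47.2 and 45.7 FPKM in the KO-labelled libraries, 20.9, 23.5 and 23.3 FPKM in Gr_1 and 47.2, 52.3 and 76.8 FPKM in fl. The Gr_1 libraries were the low ones, below every library of the other groups. Cebpd had 48.6, 40.7 and 47.0 FPKM in the KO-labelled libraries, 86.8, 90.1 and 82.3 FPKM in Gr_1 and 43.7, 42.8 and 60.9 FPKM in fl. Here the Gr_1 libraries were the high ones, above every library of the other groups, while the KO-labelled libraries and fl overlapped.

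Cebpg and Ddit3 were the least abundant members. Cebpg had 7.98, 6.61 and 7.10 FPKM in the KO-labelled libraries, 9.26, 8.64 and 9.60 FPKM in Gr_1 and 9.37, 10.8 and 9.11 FPKM in fl, with the KO-labelled libraries below both other groups and Gr_1 overlapping fl. Ddit3 had 9.84, 11.1 and 11.1 FPKM in the KO-labelled libraries, 14.0, 15.5 and 23.2 FPKM in Gr_1 and 12.2, 12.1 and 7.26 FPKM in fl. The Gr_1 libraries were the high ones, and fl C was the lowest of the 9. The fewest fragments behind any of these values were 230, for Ddit3 in fl C. The members were thus well above the floor of 3 fragments, which for 1 kilobase of exon is 0.136 to 0.187 FPKM. In these bulk samples, fewer cells of a type and less RNA per cell cannot be told apart.

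**Figure D1:**
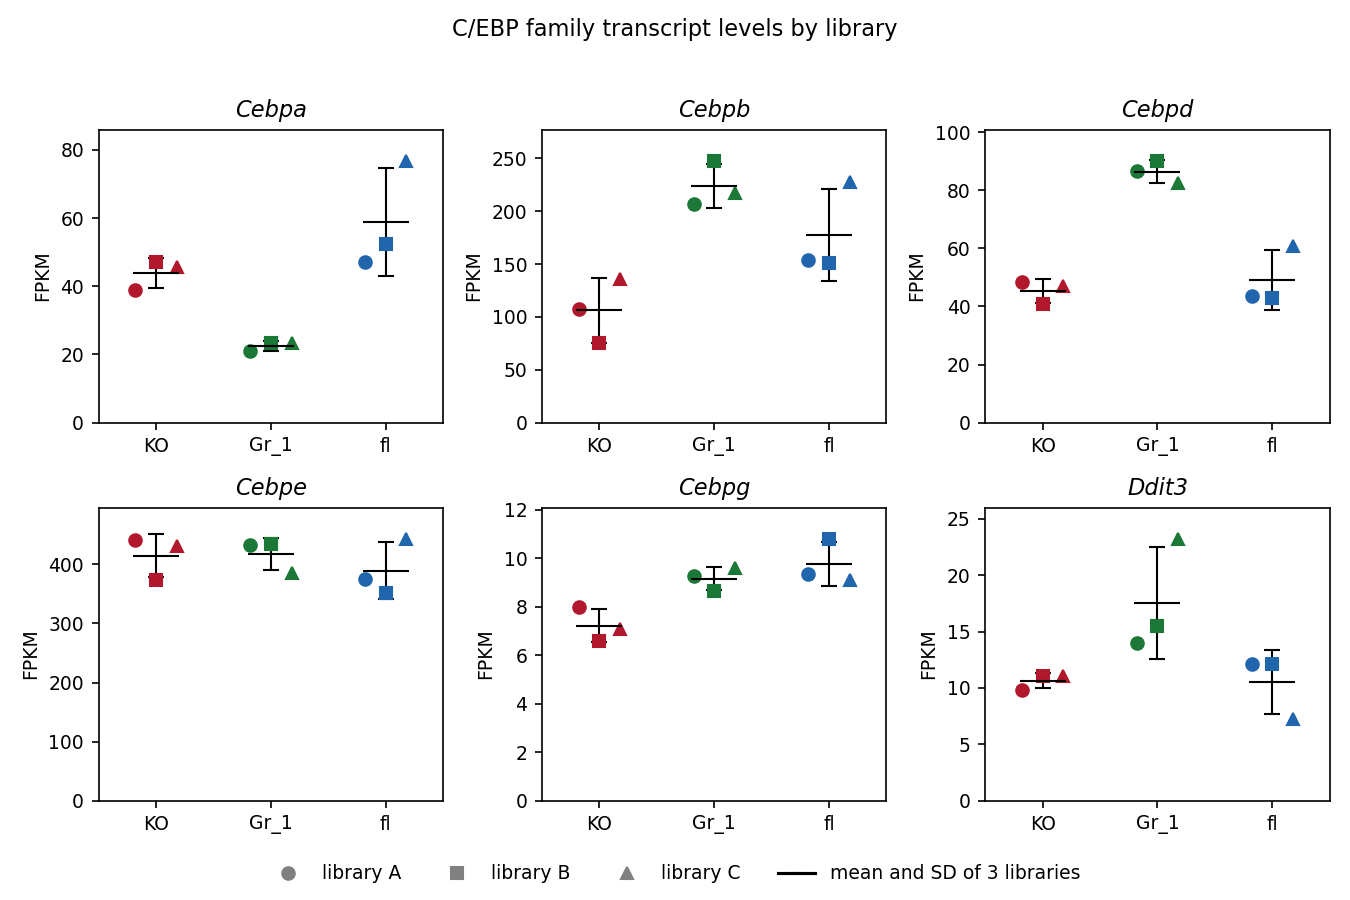
FPKM (vertical axis of each panel, from 0) of the 6 C/EBP genes in libraries A, B and C of the groups KO, Gr_1 and fl; the bar is the mean and the error bar the SD of 3 libraries. The Gr_1 libraries are lowest for Cebpa (20.9 to 23.5 FPKM) and highest for Cebpd (82.3 to 90.1 FPKM), the KO-labelled libraries are lowest for Cebpb (74.9 to 136 FPKM), and the groups overlap for Cebpe.

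In order of level, the KO-labelled libraries had Cebpe (415 ± 36.8 FPKM), Cebpb (106 ± 30.6), Cebpd (45.4 ± 4.17), Cebpa (43.9 ± 4.49), Ddit3 (10.7 ± 0.703) and Cebpg (7.23 ± 0.692; mean ± SD, n = 3). Cebpd and Cebpa did not differ beyond their spread. Gr_1 had Cebpe (417 ± 27.5), Cebpb (224 ± 21.2), Cebpd (86.4 ± 3.89), Cebpa (22.6 ± 1.43), Ddit3 (17.6 ± 4.96) and Cebpg (9.17 ± 0.484), where Cebpa (20.9 to 23.5) and Ddit3 (14.0 to 23.2) overlapped and Ddit3 lay above Cebpg. In fl the order was Cebpe (389.6 ± 47.9), Cebpb (178 ± 43.4), Cebpa (58.8 ± 15.8), Cebpd (49.1 ± 10.2), Ddit3 (10.5 ± 2.81) and Cebpg (9.76 ± 0.912), and there the range of Cebpa overlapped that of Cebpd and the range of Ddit3 that of Cebpg. Library by library, however, Cebpa lay above Cebpd throughout fl and above Ddit3 throughout Gr_1. Summed over the 6 genes, the C/EBP level was 629 ± 66.0 FPKM in the KO-labelled libraries, 777 ± 39.7 FPKM in Gr_1 and 695 ± 113 FPKM in fl.

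A ratio within a library does not depend on the factor by which that library was scaled. Cebpe made up 66.1 ± 2.24% of the summed C/EBP level in the KO-labelled libraries, 53.7 ± 2.14% in Gr_1 and 56.3 ± 2.39% in fl, and its lowest share under the KO label (63.5%) lay above its highest elsewhere (58.5%, in fl). Cebpb made up 16.7 ± 3.29% in the KO-labelled libraries, against 28.8 ± 1.73% in Gr_1 and 25.3 ± 1.98% in fl, and its ranges in the KO-labelled libraries (13.5 to 20.1%) and fl (24.0 to 27.6%) did not meet. Cebpa held 7.06 ± 1.33% of the summed level in the KO-labelled libraries, 2.91 ± 0.219% in Gr_1 and 8.37 ± 0.974% in fl. Cebpb exceeded Cebpa 2.45 ± 0.75 times in the KO-labelled libraries, 9.91 ± 0.627 times in Gr_1 and 3.04 ± 0.192 times in fl, so Gr_1 stood apart while the KO-labelled libraries (1.59 to 2.98) overlapped fl (2.90 to 3.26). Cebpb over Cebpd was 2.32 ± 0.534 in the KO-labelled libraries, 2.59 ± 0.187 in Gr_1 and 3.60 ± 0.119 in fl. These shares and ratios are descriptions with no test of their own.

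**Figure D2:**
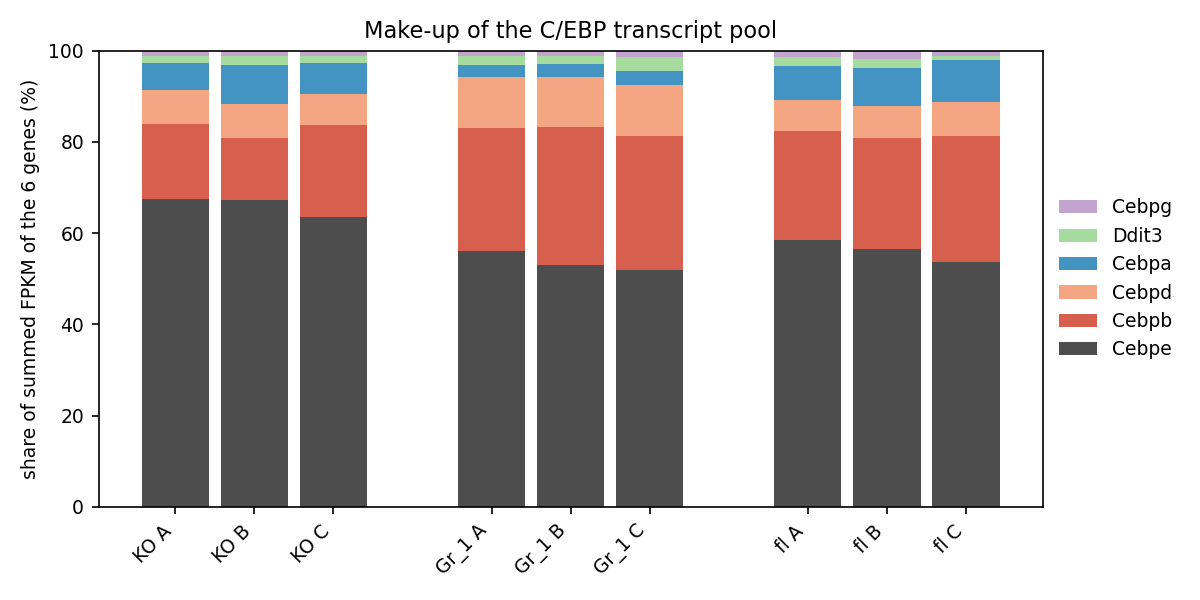
Share of each C/EBP gene in the summed FPKM of the 6 genes (vertical axis, percent), with 1 stacked bar per library in the groups KO, Gr_1 and fl. Cebpe takes 63.5 to 67.5% in the KO-labelled libraries, 52.0 to 56.1% in Gr_1 and 53.7 to 58.5% in fl, and the Cebpa band is thinnest in Gr_1 (2.72 to 3.15%).

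Against fl, the KO-labelled libraries had less Cebpg, and their lower Cebpb level missed the threshold. Of the 6 members, 0 were called higher and 1 lower, where 4.48% of all genes tested were called higher and 6.52% lower (limma on log2(FPKM + 1), Benjamini-Hochberg adjusted p under 0.05 over 12289 genes). Cebpg and Cebpb were the 2 members whose libraries lay apart from fl, as did 31.4% of all genes tested. The median log2 change was -0.24 over the members and -0.01 over all genes tested. At an unadjusted p under 0.05 stood 3 members, Cebpg, Cebpb and Cebpa.

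Cebpb, on chromosome 2 from 167688915 to 167690418 (ENSMUSG00000056501, GRCm38), is a gene of 1 exon. Its level in the KO-labelled libraries was 0.598 times that in fl, a log2 change of -0.75 ± 0.22 (SE; 95% interval -1.26 to -0.24; limma-trend adjusted p = 0.0677, lower in 3 of 3 libraries). By the two-sided exact permutation test p was 0.1, which is the smallest possible with 3 against 3 libraries. Over 22 alternatives the log2 change ran from -0.95 to -0.52 and the adjusted p from 0.0314 to 0.160, and 2 alternatives called it. KO C had 1.49 times the mean of KO A and KO B and lay above both, and fl C had 1.49 times the mean of fl A and fl B. The log2 change was -0.95 without KO C (adjusted p = 0.0505), -0.56 without fl C (adjusted p = 0.160) and -0.76 without both (adjusted p = 0.0685). Without KO B, the library with the lowest Cebpb level, it was -0.52 (adjusted p = 0.133). With the GC trend taken off it was -0.61 (adjusted p = 0.0765). Of its 1504 bases of exon, 312 (20.7%) overlap Tmem189 on the opposite strand, whose mean level was 19.6 FPKM. The use of strand in counting, not given in the sources used here, decides whether reads of the pair were told apart over that stretch.

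Cebpg (ENSMUSG00000056216) spans bases 35046422 to 35056573 of chromosome 7 (minus strand), 62720 bases from Cebpa. Its level in the KO-labelled libraries was 0.741 times that in fl, a log2 change of -0.39 ± 0.09 (95% interval -0.59 to -0.19; limma-trend adjusted p = 0.0244, lower in 3 of 3 libraries). The call was kept in 12 of 22 alternatives. Leaving out 1 library ended it for fl A (adjusted p = 0.0552), fl B (0.0833), KO B (0.0622) and KO C (0.0958), as did leaving out both KO C and fl C (0.0951), using no filter on low values (0.0526), leaving the 10 most abundant genes out of the scaling (0.0801), fitting the 2 groups alone (0.0656) and the replicate block, alone (0.0599) or with the GC correction (0.0551), while the log2 change stayed between -0.45 and -0.32.

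The other four members were not called. Cebpa (ENSMUSG00000034957, chromosome 7 from 35119293 to 35121928) had a log2 change of -0.39 ± 0.16 (95% interval -0.76 to -0.01, limma-trend adjusted p = 0.176), which was -0.18 without fl C. Cebpd (ENSMUSG00000071637, chromosome 16 from 15887286 to 15891031) had -0.10 ± 0.13 (95% interval -0.40 to 0.21), and 0.07 without fl C. Cebpe (ENSMUSG00000052435, chromosome 14 from 54710360 to 54712174) had 0.09 ± 0.11 (95% interval -0.16 to 0.34). Ddit3 (ENSMUSG00000025408, chromosome 10 from 127290774 to 127296288) had 0.05 ± 0.22 (95% interval -0.44 to 0.54), and -0.17 without fl C. A second row of the table with the symbol Ddit3 was at 0 in the 9 libraries. Exons of Cebpd overlap those of Spidr on the opposite strand over 562 of 3746 bases of exon, and exons of Ddit3 overlap those of Mars over 68 of 1713 bases.

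Set against fl, Gr_1 had less Cebpa and more Cebpd, and, on the deposited scale, more Ddit3, a call that rescaling to equal sums of FPKM ended. Of the 6 members, 2 were called higher and 1 lower, where 30.0% of all genes tested were called higher and 31.4% lower. The libraries of 3 members lay apart, against 67.5% of all genes tested, and the median log2 change was 0.23 over the members and -0.03 over all genes tested. The count is thus near the background of a comparison in which most genes differed.

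Cebpa in Gr_1 was 0.384 times its level in fl, a log2 change of -1.31 ± 0.16 (limma-trend adjusted p = 0.000162, lower in 3 of 3 libraries). It was called in 22 of 22 alternatives, at -1.11 without fl C. Cebpd in Gr_1 was 1.76 times its level in fl, with a log2 change of 0.82 ± 0.13 (limma-trend adjusted p = 0.000705, higher in 3 of 3 libraries), and was likewise called in 22 of 22 alternatives. Ddit3 was 1.67 times its fl level, with a log2 change of 0.69 ± 0.22 (limma-trend adjusted p = 0.0213, higher in 3 of 3 libraries). Gr_1 C was the highest and fl C the lowest library for Ddit3, and the call was lost without Gr_1 C (log2 change 0.48, adjusted p = 0.0695) and without fl C (0.47, adjusted p = 0.0565). The Ddit3 call was also lost under scaling, at a log2 change of 0.30 with equal sums (adjusted p = 0.296) and 0.56 without the 10 most abundant genes in the sums (adjusted p = 0.0702), and with no filter on low values (adjusted p = 0.0519). Cebpb (0.35 ± 0.22, 95% interval -0.16 to 0.86), Cebpe (0.10 ± 0.11, 95% interval -0.15 to 0.35) and Cebpg (-0.08 ± 0.09, 95% interval -0.28 to 0.12) were not called. Without both KO C and fl C, Cebpb was called at a log2 change of 0.55 (adjusted p = 0.0230), and without fl C alone it had 0.55 with an adjusted p of 0.0588.

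Set against Gr_1, the KO-labelled libraries had more Cebpa and less Cebpb and Cebpd, and, on the deposited scale, less Cebpg and Ddit3, calls that rescaling to equal sums of FPKM ended, with the sign of Cebpg turning. Of the 6 members, 1 was called higher and 4 lower, where 26.7% of all genes tested were called higher and 28.9% lower. The libraries of 5 members lay apart, against 68.2% of all genes tested, and the median log2 change was -0.47 over the members and 0.01 over all genes tested. The 3 comparisons share libraries, so they are no independent support for one another.

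Cebpa was 1.94 times as high in the KO-labelled libraries as in Gr_1 (log2 change 0.93 ± 0.16, limma-trend adjusted p = 0.00152, higher in 3 of 3 libraries). Cebpb was 0.475 times as high (-1.10 ± 0.22, limma-trend adjusted p = 0.00305, lower in 3 of 3 libraries) and Cebpd 0.526 times as high (-0.92 ± 0.13, limma-trend adjusted p = 0.000528, lower in 3 of 3 libraries). These 3 calls held in 22 of 22 alternatives. Cebpg had a log2 change of -0.31 ± 0.09 (limma-trend adjusted p = 0.0155), and the call was lost without KO B (adjusted p = 0.0548), KO C (0.0513) or Gr_1 C (0.0524). Its direction rested on the scaling: the log2 change was 0.08 under equal sums (adjusted p = 0.458) and -0.12 without the 10 most abundant genes (adjusted p = 0.338). Ddit3 had -0.64 ± 0.22 (limma-trend adjusted p = 0.0320) and was called in 12 of 22 alternatives: it was lost without KO A (adjusted p = 0.0807), KO B (0.0627), KO C (0.0647) or Gr_1 C (0.104). The Ddit3 change was -0.23 under equal sums (adjusted p = 0.425) and -0.44 without the 10 most abundant genes (adjusted p = 0.144), and the call was further lost with quantile normalization (adjusted p = 0.0693), with no filter on low values (0.0746) and with the replicate block, alone (0.0599) or with the GC correction (0.0860). Cebpe differed by -0.01 ± 0.11 (95% interval -0.26 to 0.24).

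**Figure D3:**
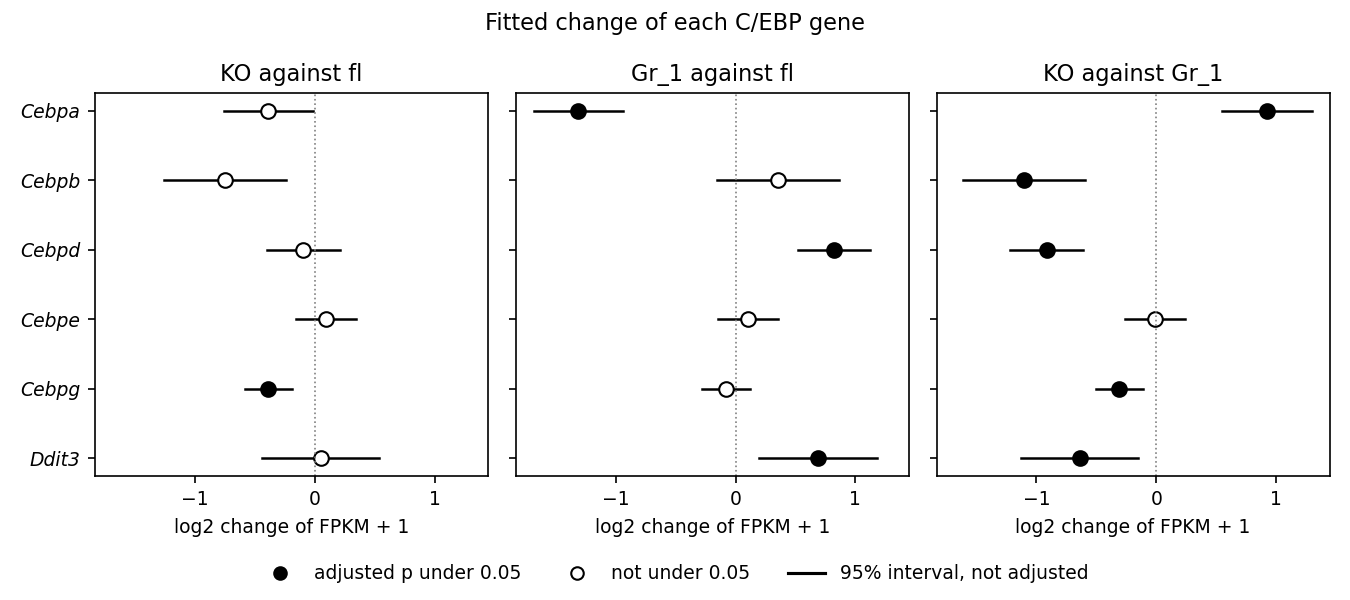
Fitted change of log2(FPKM + 1) of each C/EBP gene (horizontal axis) in the comparisons KO against fl, Gr_1 against fl and KO against Gr_1, with unadjusted 95% intervals; filled points have an adjusted p under 0.05. The filled points are Cebpg alone in the first panel, Cebpa, Cebpd and Ddit3 in the second, and the 5 members other than Cebpe in the third.

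The scaling of libraries moved the comparisons with Gr_1. On the deposited scale the median log2 change of all genes was -0.03 for Gr_1 against fl and 0.01 for the KO-labelled libraries against Gr_1. Where libraries were rescaled to equal sums of FPKM, the median log2 change of all genes moved to -0.36 for Gr_1 against fl and to 0.36 for the KO-labelled libraries against Gr_1, and leaving the 10 most abundant genes out of the sums moved it to -0.14 for Gr_1 against fl and 0.18 for the KO-labelled libraries against Gr_1. Under equal sums, 1 member was called higher and 3 lower in Gr_1 against fl, and 2 higher and 2 lower in the KO-labelled libraries against Gr_1. Cebpe then had a log2 change of -0.31 in Gr_1 against fl (adjusted p = 0.00635) and 0.43 in the KO-labelled libraries against Gr_1 (adjusted p = 0.00118), each close to the median of all genes under that scaling. Cebpa, at -1.71 in Gr_1 against fl and 1.35 in the KO-labelled libraries against Gr_1, kept its directions, as did Cebpd, at 0.41 in Gr_1 against fl and -0.48 in the KO-labelled libraries against Gr_1.

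**Figure D4:**
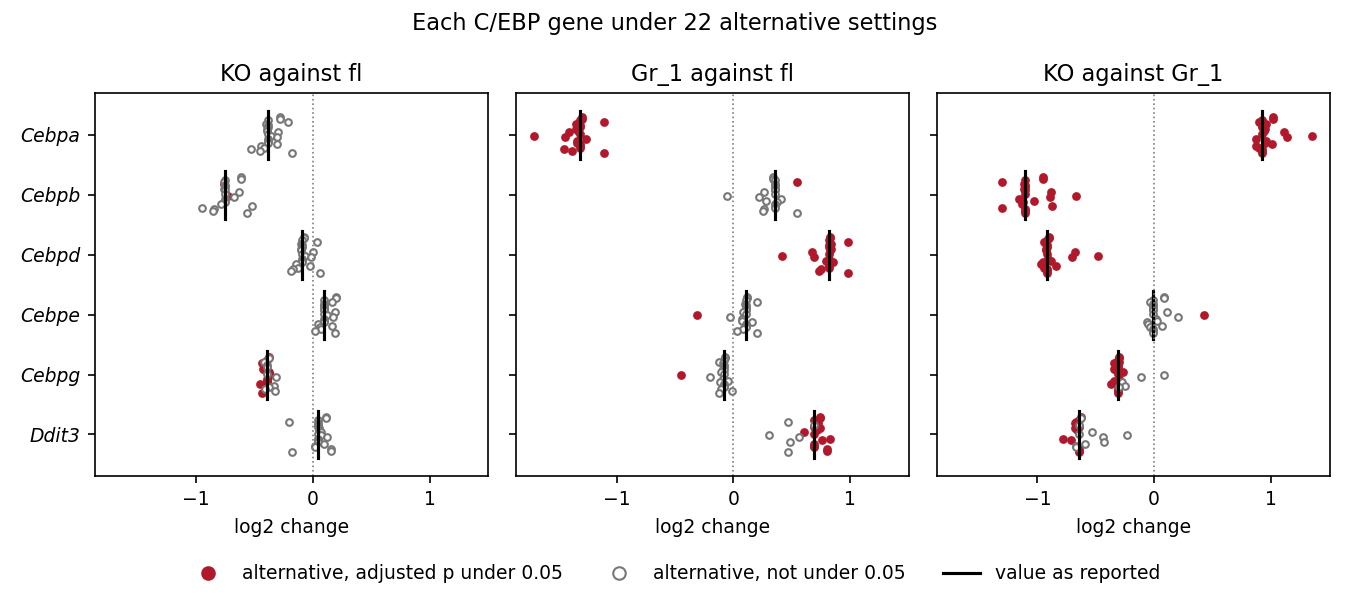
Log2 change of each C/EBP gene (horizontal axis) under 22 alternative settings, with the reported value as a black line, for the comparisons KO against fl, Gr_1 against fl and KO against Gr_1; red points have an adjusted p under 0.05. Cebpa and Cebpd are red throughout in both comparisons with Gr_1, whereas Cebpb in KO against fl stays between -0.95 and -0.52 with 2 red points.

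Regulators upstream of the family and fate factors that act beside it were described as a list of 27 genes, all tested. For KO against fl, 3 were called higher and 4 lower, where 4.48% of all genes tested were called higher and 6.52% lower. The median log2 change of the list was 0.00. The 4 lower genes were Klf4 and Irf8, which favour monocytes, and the interleukin-6 receptor subunits Il6ra and Il6st. Klf4 had 21.4 ± 1.73 FPKM in the KO-labelled libraries and 58.3 ± 15.5 in fl (SD, n = 3 each), a log2 change of -1.37 (limma-trend adjusted p = 0.00419). Irf8 had 14.1 ± 1.72 FPKM in the KO-labelled libraries and 24.6 ± 1.76 in fl, with a log2 change of -0.76 (limma-trend adjusted p = 0.00174), and Il6ra had 18.7 ± 1.90 FPKM in the KO-labelled libraries and 36.9 ± 1.46 in fl, with a log2 change of -0.94 (limma-trend adjusted p = 0.000522). The 3 higher genes were Csf3r, Klf5 and Trib1. Trib1, an adaptor that directs C/EBPα to degradation, had 35.3 ± 4.37 FPKM in the KO-labelled libraries and 24.4 ± 0.829 in fl (log2 change 0.51, limma-trend adjusted p = 0.0274, called in 13 of 22 alternatives). The count of higher genes was 0 without KO C and 1 without fl A, fl B or fl C, 5 with the GC correction and 6 without the 10 most abundant genes in the scaling, and that of lower genes stayed at 4 in each.

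In Gr_1 against fl, 12 of the 27 regulators were called higher and 10 lower, where 30.0% of all genes tested were called higher and 31.4% lower. Under equal sums, 7 regulators were called higher and 12 lower. Trib1 had 102 ± 15.6 FPKM in Gr_1 and 24.4 ± 0.829 in fl, a log2 change of 2.01 (limma-trend adjusted p = 3.47e-06). Csf3r, the G-CSF receptor gene, had 558 ± 28.1 FPKM in Gr_1 and 98.4 ± 0.476 in fl, a log2 change of 2.49 (limma-trend adjusted p = 8.77e-06). For KO against Gr_1, 8 were called higher and 12 lower, where 26.7% of all genes tested were called higher and 28.9% lower. Under equal sums, 14 of the regulators were higher and 8 lower. Gfi1, a transcriptional repressor needed in granulocyte precursors, had 38.8 ± 7.41 FPKM in the KO-labelled libraries and 14.2 ± 0.434 in Gr_1, a log2 change of 1.37 (limma-trend adjusted p = 0.000169). Lef1, reported in human cells to activate the Cebpa ortholog, had 0.226 ± 0.0934 FPKM in the KO-labelled libraries and 2.01 ± 0.473 in Gr_1 (log2 change -1.29, limma-trend adjusted p = 0.000109). Stat3 and Spi1 were called higher in Gr_1 than in fl and lower in the KO-labelled libraries than in Gr_1.

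Among 22 other bZIP genes, the pool of possible partners, 21 were tested. For KO against fl, 2 were called higher and 8 lower (Atf3, Batf3, Fos and Junb among them), with a median log2 change of -0.31. Fos, a subunit of AP-1, had 261 ± 15.6 FPKM in the KO-labelled libraries and 570 ± 5.72 in fl, a log2 change of -1.13 (limma-trend adjusted p = 0.000499). The count of lower genes was 6 without KO C and 7 without fl C, and that of the higher genes, Fosl1 and Hlf, was 0 without KO B, KO C or any 1 of the fl libraries and 1 without KO A or Gr_1 B. In Gr_1 against fl, 5 were called higher and 9 lower (3 and 14 under equal sums), among them Nfe2 at 138 ± 2.07 FPKM in Gr_1 and 68.2 ± 9.65 in fl. For KO against Gr_1, 6 were called higher and 7 lower (10 and 4 under equal sums), with the count of higher genes at 3 without Gr_1 A. Of all genes tested, 30.0% were called higher and 31.4% lower in Gr_1 against fl, and 26.7% and 28.9% for KO against Gr_1. For KO against fl the shares were 4.48% and 6.52%. Junb had 235 ± 17.6 FPKM in the KO-labelled libraries and 479 ± 24.9 in Gr_1, and Fosl2 had 29.2 ± 4.08 FPKM in the KO-labelled libraries and 77.9 ± 10.4 in Gr_1.

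The integrated and endoplasmic reticulum stress genes give the setting of Ddit3. Of 39 listed genes 36 were tested, and in the KO-labelled libraries against fl 3 were called higher (Asns, Chac1 and Slc7a11) and 4 lower (Atf3, Bbc3, Ern1 and Nupr1), with a median log2 change of -0.05. The count of higher genes was 0 without fl A, fl B or KO C and 1 without Gr_1 B. Nupr1, a stress-induced chromatin protein, had 2.94 ± 0.266 FPKM in the KO-labelled libraries and 6.12 ± 0.480 in fl (log2 change -0.85, limma-trend adjusted p = 0.00246). In Gr_1 against fl, 7 were called higher and 18 lower (5 and 25 under equal sums), with a median log2 change of -0.37. Sesn2, a target of the amino acid response, had 22.9 ± 0.364 FPKM in Gr_1 and 4.48 ± 0.634 in fl (log2 change 2.13, limma-trend adjusted p = 1.57e-05). Xbp1, a factor of the unfolded protein response, had 45.4 ± 1.61 FPKM in Gr_1 and 76.1 ± 4.93 in fl (log2 change -0.73, limma-trend adjusted p = 3.33e-05). Over all genes tested, 4.48% were called higher and 6.52% lower for KO against fl. The shares were 30.0% and 31.4% in Gr_1 against fl, and 26.7% and 28.9% for KO against Gr_1. For KO against Gr_1, 16 of the stress genes were called higher and 9 lower (24 and 5 under equal sums). The higher ones included the chaperone genes Hspa5, Hsp90b1 and Calr, and the lower ones Trib3 and Chac1, both of which ATF4 and CHOP are known to activate.

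Primary granule genes, which C/EBPα is known to activate, moved with Gr_1. Their list also holds genes that encode no granule protein, among them Csf3r, Gfi1 and the receptor gene Sirpa. Of 11 tested genes, 1 was called higher (Csf3r) and 9 lower in Gr_1 against fl. In the KO-labelled libraries against Gr_1, 9 were called higher and 2 lower (Csf3r and Sirpa). The median log2 changes were -2.73 in Gr_1 against fl and 2.76 in the KO-labelled libraries against Gr_1. Elane, neutrophil elastase, had 2387 ± 745 FPKM in the KO-labelled libraries, 92.7 ± 27.2 in Gr_1 and 2402 ± 530 in fl (SD, n = 3 each). Its log2 change was -4.70 in Gr_1 against fl (limma-trend adjusted p = 4.02e-06) and -0.04 in the KO-labelled libraries against fl (limma-trend adjusted p = 0.953). Mpo, myeloperoxidase, had 989 ± 436 FPKM in the KO-labelled libraries, 56.5 ± 12.7 in Gr_1 and 835 ± 134 in fl. Over all genes tested, 30.0% were called higher and 31.4% lower in Gr_1 against fl. The shares were 26.7% and 28.9% for KO against Gr_1, and 4.48% and 6.52% for KO against fl. The list had, in the KO-labelled libraries against fl, 1 gene called higher (Csf3r) and 1 lower (Ctsc). Both counts were 0 without fl A, fl B or KO C, the count of higher genes was 0 without fl C, and that of lower genes was 2 without KO A.

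Secondary and tertiary granule genes, many of them targets of C/EBPε, also differed although Cebpe itself was not called. Their list of 18 genes also holds the chemokine receptor gene Cxcr2. In Gr_1 against fl, 15 were called higher and 1 lower, and in the KO-labelled libraries against Gr_1 1 higher and 15 lower. Over all genes tested, 30.0% were called higher and 31.4% lower in Gr_1 against fl. The shares were 26.7% and 28.9% for KO against Gr_1, and 4.48% and 6.52% for KO against fl. For KO against fl, 4 were called higher (Cxcr2, Mmp8, Mmp9 and Olfm4) and 1 lower (Lyz2), with a median log2 change of 0.28, and the count of higher genes was 8 without KO B and 7 under equal sums. Mmp9, the tertiary granule gelatinase, had 215 ± 81.9 FPKM in the KO-labelled libraries, 1621 ± 133 in Gr_1 and 13.4 ± 2.05 in fl, and its log2 change against fl was 3.84 under the KO label (limma-trend adjusted p = 0.000216) and 6.82 in Gr_1 (limma-trend adjusted p = 6.00e-07). Ltf, lactoferrin, had 2207 ± 732 FPKM in the KO-labelled libraries, 6561 ± 304 in Gr_1 and 1398 ± 70.0 in fl. Lyz2 encodes lysozyme M, and its locus carries the recombinase in the widely used LysM-Cre strain. It had 53.2 to 59.8 FPKM in the KO-labelled libraries, KO C included, against 10486 to 10808 FPKM in Gr_1 and 8670 to 9998 FPKM in fl.

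Genes reported as C/EBPβ targets in macrophages and emergency granulopoiesis numbered 24, of which 17 were tested. Among them Il1b, S100a8 and S100a9 are also in the late neutrophil list, and Nr4a1 in the monocyte list. For KO against fl, 1 was called higher (Il1b) and 4 lower (Ccl2, Msr1, Nr4a1 and Plac8), with a median log2 change of -0.10. Il1b, the interleukin-1β gene, had 110 ± 70.3 FPKM in the KO-labelled libraries and 10.5 ± 0.837 in fl (log2 change 3.03, limma-trend adjusted p = 0.00339). Ccl2, a monocyte attractant, had 1.89 ± 0.287 FPKM in the KO-labelled libraries and 5.77 ± 0.362 in fl (log2 change -1.23, limma-trend adjusted p = 0.00333). The count of lower genes was 2 without fl A, fl B or KO C, and that of higher genes was 3 without KO A and 2 without KO B or Gr_1 C. In Gr_1 against fl, 6 were called higher and 7 lower, with Plaur, the urokinase receptor gene, at 329 ± 46.6 FPKM in Gr_1 and 113 ± 4.04 in fl and Ptgs2, cyclooxygenase-2, at 51.8 ± 3.73 FPKM in Gr_1 and 6.13 ± 1.67 in fl. For KO against Gr_1, 6 were called higher and 7 lower (8 and 6 under equal sums). The shares of all genes tested were 30.0% higher and 31.4% lower in Gr_1 against fl, and 26.7% and 28.9% for KO against Gr_1. For KO against fl they were 4.48% and 6.52%.

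Mir155hg, the host transcript of microRNA-155, lies on chromosome 16 from 84703167 to 84715245 and gave 2, 11 and 3 fragments under the KO label, 4, 1 and 10 in Gr_1 and 0, 1 and 1 in fl. It did not pass the filter and was not tested, and the mature microRNA is not measured by these libraries. Of 12 listed genes (the host and reported targets, Cebpb among them), 11 were tested. For KO against fl, 2 were called higher (Ets1 and Trp53inp1) and 4 lower (Bach1, Csf1r, Jarid2 and Maf), and without the 10 most abundant genes in the scaling 2 and 2. Csf1r, the receptor of macrophage colony-stimulating factor, had 47.1 ± 10.6 FPKM in the KO-labelled libraries and 105 ± 2.69 in fl (log2 change -1.16, limma-trend adjusted p = 0.00179). Bach1, a bZIP repressor, had 19.3 ± 1.66 FPKM in the KO-labelled libraries and 28.9 ± 2.31 in fl (log2 change -0.56, limma-trend adjusted p = 0.00375). The count of lower genes was 2 without fl A, fl B, KO A or KO C, and that of higher genes was 0 without KO A, KO C or fl B and 1 without Gr_1 A, Gr_1 B, fl A or fl C. In Gr_1 against fl, 5 were called higher and 3 lower (3 and 4 under equal sums). For KO against Gr_1, 1 was called higher and 8 lower (3 and 4 under equal sums), with the count of higher genes at 2 without KO B. Over all genes tested, 4.48% were called higher and 6.52% lower for KO against fl. The shares were 30.0% and 31.4% in Gr_1 against fl, and 26.7% and 28.9% for KO against Gr_1.

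Markers of cell types moved with the groups as well, and their part in the C/EBP results was not tested. Over all genes tested, 4.48% were called higher and 6.52% lower for KO against fl. The shares were 30.0% and 31.4% in Gr_1 against fl, and 26.7% and 28.9% for KO against Gr_1. Late neutrophil markers were called higher in 14 of 14 genes in Gr_1 against fl and in 10 of 14 in the KO-labelled libraries against fl, with median log2 changes of 4.44 in Gr_1 and 2.13 under the KO label, and lower in 14 of 14 in the KO-labelled libraries against Gr_1. Ly6g, the neutrophil surface antigen, had 107 ± 44.9 FPKM in the KO-labelled libraries, 684 ± 44.9 in Gr_1 and 9.99 ± 1.62 in fl. Monocyte markers were called lower in 11 of 13 genes in the KO-labelled libraries against fl. In Gr_1 against fl 12 of 13 were lower and Cybb was higher. In the KO-labelled libraries against Gr_1, 9 were called higher and 1 lower (Cybb). Under equal sums neither call of Cybb was kept. The summed level of monocyte markers ran from 1145 to 1262 FPKM in the KO-labelled libraries, 1013 to 1071 in Gr_1 and 1654 to 1957 in fl. Ly6c2 and Cybb held the largest parts. Their means were 440 and 300 FPKM in the KO-labelled libraries, 345 and 448 in Gr_1 and 486 and 285 in fl. Fn1, fibronectin, had 88.3 ± 0.843 FPKM in the KO-labelled libraries, 26.7 ± 5.51 in Gr_1 and 257 ± 12.1 in fl. The summed level of late neutrophil markers ran from 49163 to 71894 FPKM in the KO-labelled libraries, 128520.0 to 132545 in Gr_1 and 44511 to 46875 in fl. Most of each sum came from S100a8 and S100a9. Their means were 24098 and 32691 FPKM in the KO-labelled libraries, 51389 and 67025 in Gr_1 and 18006 and 26569 in fl. Neither was called for KO against fl (limma-trend adjusted p = 0.228 and 0.410).

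The remaining marker lists were lower in summed level than the late neutrophil list in each group. Eosinophil, basophil and mast cell markers summed to 7327 to 12757 FPKM in the KO-labelled libraries, 2460.4 to 3009 in Gr_1 and 6225 to 12006 in fl. The eosinophil gene Prg2 held the largest part, with means of 6252, 1401 and 5333 FPKM in KO, Gr_1 and fl. In the KO-labelled libraries against fl, 9 of 18 were called higher (2 without KO C, 4 without fl A, 3 without fl B). Cpa3, Mcpt8, Prss34, Ms4a2, Fcer1a, Gata1, Gata2, Hdc and Siglecf were called. The eosinophil granule genes Epx, Prg2, Prg3, Ear1, Ear2 and Ear6 were not (limma-trend adjusted p from 0.264 to 0.664). Against Gr_1, 16 of the list were called higher and 1 lower (Hdc) in the KO-labelled libraries. In Gr_1 against fl, 1 was called higher and 9 lower, and the count of higher genes was 2 without Gr_1 A or fl C. Cpa3, mast cell carboxypeptidase, had 18.3 ± 0.164 FPKM in the KO-labelled libraries, 6.45 ± 1.24 in Gr_1 and 4.96 ± 0.812 in fl. T and NK cell markers summed to 29.2 to 48.6 FPKM in the KO-labelled libraries, 12.3 to 13.2 in Gr_1 and 9.41 to 14.1 in fl, and 8 of 9 tested were called higher in the KO-labelled libraries against fl (5 without KO B or KO C). B cell markers summed to 210.3 to 259 FPKM in the KO-labelled libraries, 681 to 743 in Gr_1 and 242 to 275 in fl, with 10 of 10 called higher in Gr_1 against fl and 0 in either direction in the KO-labelled libraries against fl. Progenitor markers summed to 67.3 to 96.3 FPKM in the KO-labelled libraries, 57.0 to 70.1 in Gr_1 and 51.8 to 61.1 in fl, and 3 of 10 tested were called higher in the KO-labelled libraries against fl (1 without fl A, fl B, KO B or KO C, 5 without KO A, 6 with the GC correction).

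**Figure D5:**
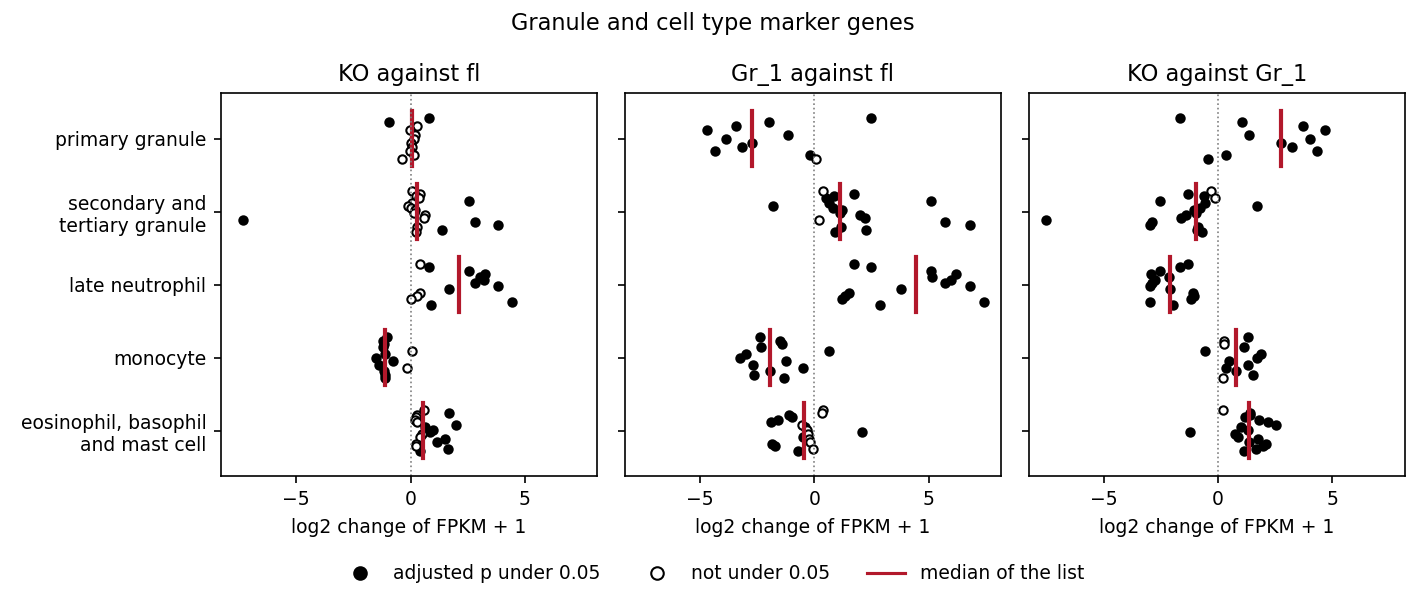
Change of log2(FPKM + 1) (horizontal axis) of each tested gene of 5 lists, in the comparisons KO against fl, Gr_1 against fl and KO against Gr_1; filled points have an adjusted p under 0.05 and red bars are list medians. The primary granule list, with Csf3r, Gfi1 and Sirpa in it, lies at a median of -2.73 in Gr_1 against fl and 2.76 in KO against Gr_1. Late neutrophil markers lie at 4.44 in Gr_1 against fl and -2.12 in KO against Gr_1, while the point far to the left in the first panel is Lyz2.

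Over the 9 libraries, Cebpb and Cebpd were the pair of members with the highest correlation of log2(FPKM + 1) (Pearson r = 0.80, Spearman rho = 0.78), and Cebpa and Ddit3 the pair with the lowest Pearson r (-0.81, with rho = -0.67), while Cebpa and Cebpd had the lowest rho (-0.68, with r = -0.75). The libraries fall into 3 groups, so these values mostly describe differences between groups, and no p is given. The genes most like each member by Pearson r over the same libraries were 2610001J05Rik (r = 0.996), Entpd6 (0.996) and Kbtbd11 (0.992) for Cebpa, and H2-D1 (0.997), Samd4b (0.996) and Vps37c (0.995) for Cebpd. For Cebpb they were Gm15417, Znhit1 and Tceanc2 (0.97 to 0.96), for Cebpe 0610037L13Rik, Tnk2 and Rps6ka1 (0.94 to 0.92), for Cebpg AV356131, Soat1 and Apobec1 (0.96 to 0.95), and for Ddit3 Coq10b, Tiparp and Map3k2 (0.98 to 0.97). H2-D1, a class I histocompatibility gene, had 600 ± 23.9 FPKM in the KO-labelled libraries, 928 ± 28.1 in Gr_1 and 643 ± 86.0 in fl, the same order of groups as Cebpd.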

How the data were processed

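Total RNA of mouse myeloid cells was sequenced in paired-end mode, per the labels' protocols. The authors deposited 1 table of FPKM values, with 1 column per library and Ensembl gene IDs, per the file headers. The submitters' processing notes name featureCounts 1.5.0-p3 and DESeq2 1.16.1 and list mm10 and GRCm38 as builds, without roles. No aligner is named (not given in the sources used here). Symbols, exon lengths and coordinates came from GENCODE M21 (54495 of 54532 IDs matched). Fragments were recovered as FPKM times exon length divided by the smallest step; 97.2 to 97.5% of values under 1000 fragments were whole within 0.02.

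Genes reaching 1 FPKM in 3 or more libraries were kept. A limma-trend model (limma 3.58.1 under R 4.3.3) was fitted to log2(FPKM + 1), 9 libraries in 1 fit and 6 residual degrees of freedom before moderation. Tests were two-sided with Benjamini-Hochberg adjustment, called under 0.05. Log2 changes on this scale understate those of low genes; ratios are of mean FPKM. The p-values reflect the spread between samples alone, and that spread may be technical; the floor of 3 fragments covers counting error only. The procedure was tested on simulated data. Figures were drawn with matplotlib 3.10.9, and tables were made in Python 3.11.15 with scipy 1.17.1, pandas 2.3.3 and numpy 2.4.6.

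The members and the 13 gene lists were chosen with earlier results of these data known, and the lists are described by counts and medians with no set test. Lists share genes (Csf3r, Mmp9 and Klf4 recur across them), so counts of different lists are not separate observations. Named genes are the members, Socs3 and Mir155hg, examples from up to 2 called genes per direction, list and comparison with the smallest adjusted p, and the 3 genes most like each member by Pearson r. Mpo, Ltf, Ly6g, Stat3, Spi1, Il6st, Hspa5, Hsp90b1, Calr, Trib3, Chac1, S100a8, S100a9, Epx, Prg2, Prg3, Ear1 and Ear6 fall outside this rule. So do the members written out beside a count of called genes. All of these were chosen after their values were seen, as were both promoter half-sites. Alternatives were the pseudocount, the filter, the scaling, quantile normalization, the 2 groups alone, the replicate block, limma-voom on recovered fragments, each library left out, and, added after seeing the data, a GC correction (alone or with the block) and leaving out both KO C and fl C. The labels do not say whether the letters pair the libraries.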

Additional observations from a re-analysis of the deposited data

How the results depend on the processing

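Of the member changes under alternatives, 346 kept their direction and their side of the threshold, 30 kept the direction and lost the call, 4 gained one and 16 turned in sign; causes were not tested. For KO against fl the count of members called (1 as reported) was 0 with no filter on low values, without the 10 most abundant genes in the scaling, with only the 2 groups compared, with the replicate block, with the GC correction and block together, and without both KO C and fl C. It was 2 under equal sums and with limma-voom on recovered fragments, and 0 to 1 with 1 library left out. Genes called for KO against fl (1352) numbered 797 with only the 2 groups and 452 without both KO C and fl C, and between 573 (without KO C) and 1261 with 1 library left out; it was 818 without fl A and 730.0 without fl B. For KO against Gr_1, 3 members were called without the 10 most abundant genes and 3 to 5 with 1 library left out (5 as reported). Of the counts over gene lists, 164 of the alternatives moved a count by over 1.5 times and 1552 did not. Limma-voom called 1621, 7538 and 6879 genes for KO against fl, Gr_1 against fl and KO against Gr_1, where 1352, 7550 and 6843 were reported. It kept the deposited scaling of libraries, so its counts cannot show how the calls depend on scaling.

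None of the changes that turned in sign was called as reported, except that of Cebpg in KO against Gr_1, which was 0.0840 under equal sums. Without both KO C and fl C, the log2 change for KO against fl was 0.0405 for Cebpd and -0.1998 for Ddit3; with 1 library left out it ran from -0.1838 to 0.0668 for Cebpd and from -0.1744 to 0.1610 for Ddit3, both turning without fl C. Under equal sums, Gr_1 against fl gave -0.0566 for Cebpb and -0.3086 for Cebpe, and without the 10 most abundant genes -0.0296 for Cebpe. Cebpe in KO against Gr_1 was 0.4295 under equal sums, 0.2041 without the 10 most abundant genes, 0.1113 with quantile normalization and 0.0856 with the GC correction, alone or with the replicate block, and ran from -0.0653 to 0.0654 with 1 library left out. Deviations of libraries from their group means correlated at -0.062 to 0.140 for the same letter and -0.132 to 0.082 for other letters. These values do not settle whether letters pair the libraries. The replicate block called 1037, 7280 and 6469 genes in the 3 comparisons. Depth did not limit the members, while Mir155hg, at 11 fragments or fewer, could not be compared.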
